A study of Mus musculus with 14 samples.

Results

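The genes described here encode 5 B cell receptor chains: Cd79a, Cd79b, Vpreb3, Vpreb1 and Igll1. They were found by the accession or title that the deposited files give to a tag, and all 5 were found among 22221 genes with counted tags. The data are raw counts of 20-base signature tags in 14 mouse libraries. Bone marrow was set against the other 6 tissues: the nervous tissues hippocampus and spinal cord, the parotid gland and pancreas, and liver and stomach, with 1 male and 1 female library for each tissue. All mice were of the strain C57BL6, and no age, genotype or treatment is given. A library held total RNA of the tissue named in its label, so it mixes the cell types of that tissue. How many animals stand behind a library is not stated. The liver labels name the left lobe for the male and the right lobe for the female library, so lobe and sex cannot be told apart there.

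The B cell receptor is an immunoglobulin that sits in the membrane with the signalling pair Cd79a (Ig-alpha) and Cd79b (Ig-beta). Before a B cell precursor in the bone marrow has made a light chain, its heavy chain pairs with a surrogate light chain, which is built from Vpreb1 and Igll1 (lambda-5), and this pre-B cell receptor also signals through Cd79a and Cd79b. Vpreb3 is a related immunoglobulin-domain protein that was found bound to newly made heavy chain inside B lineage cells. The surrogate light chain genes are switched off as precursors mature, whereas Cd79a and Cd79b stay on in mature B cells.

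The libraries held 2194028 to 3834568 counts. Levels are given as CPM, the counts of a gene per 1000000 counts assigned to genes, and 1 count was worth 0.289 to 0.520 CPM. A tag is counted once per transcript copy, so levels of different genes can be compared without a correction for length, although each tag may be captured with its own efficiency. Of 12 genes taken as identity markers of the 6 tissues outside marrow, all 12 were higher in both libraries of their own tissue than in any other library. Bone marrow was rich in hemoglobin and neutrophil granule transcripts: 10 erythroid genes summed to 358612 and 370999 CPM in the male and female marrow libraries, and 12 neutrophil granule genes to 28554.8 and 29857.6 CPM.

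Each gene was read almost wholly through 1 tag. The leading tags are shown because they are the measured molecules; GATC in capitals is the DpnII site that starts each tag, and the following bases identify the transcript.
Cd79a: GATCtgtcatggccacttaa
Cd79b: GATCacccaaagcctacagc
Vpreb3: GATCctgtgtaaacaaataa
Vpreb1: GATCttaggctctggagaca
Igll1: GATCtgaagtgccagaaaaa

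The leading tag carried 1654 of the 1677 counts of Cd79a over the 14 libraries, 2469 of 2522 counts of Cd79b and 1365 of 1366 counts of Vpreb3. Vpreb1 and Igll1 had a single counted tag each, with 72 and 82 counts. A second Cd79a tag, GATCtgggaccagacagttc, had 5 counts in male and 16 in female marrow and 1 count outside marrow. A second Cd79b tag, GATCtgtccccatgtttggg, had 21 and 23 counts in male and female marrow and none outside it. The minor tags thus showed the same marrow pattern as the leading ones, at counts too low to compare further. Vpreb2 is a near-identical copy of Vpreb1; it was not analysed here, and how the authors' assignment treated tags that the copies share is not stated, so the Vpreb1 counts may include it.

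All 5 genes were most abundant in bone marrow, in both libraries. Cd79b, the Ig-beta chain, was the most abundant of them, with 1276 counts (468 CPM) in male and 1169 counts (428 CPM) in female marrow. Its highest value among the other 12 libraries was 13.2 CPM, in female spinal cord. Cd79a, the Ig-alpha chain, had 691 counts (253 CPM) in male and 914 counts (335 CPM) in female marrow, and at most 7.17 CPM elsewhere, in male spinal cord. Both chains of the signalling pair thus lay far above every library from another tissue: the lower marrow value was 35.3 times the highest other value for Cd79a and 32.5 times for Cd79b.

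Vpreb3 had 703 counts (258 CPM) in male and 643 counts (236 CPM) in female marrow. Its highest value elsewhere was 4.40 CPM in female spinal cord, and 5 of the 12 other libraries had no count. The lower marrow value was 53.6 times the highest other value.

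The surrogate light chain transcripts were far scarcer. Vpreb1 had 32 counts in each marrow library, which were 11.7 CPM in both, and Igll1 had 40 counts (14.7 CPM) in male and 39 counts (14.3 CPM) in female marrow. Outside marrow Vpreb1 had 8 counts in 6 of 12 libraries, with at most 2 in a library, and Igll1 had 3 counts in 2 libraries. At that depth the level of these genes outside marrow cannot be ordered by tissue.

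**Figure D1:**
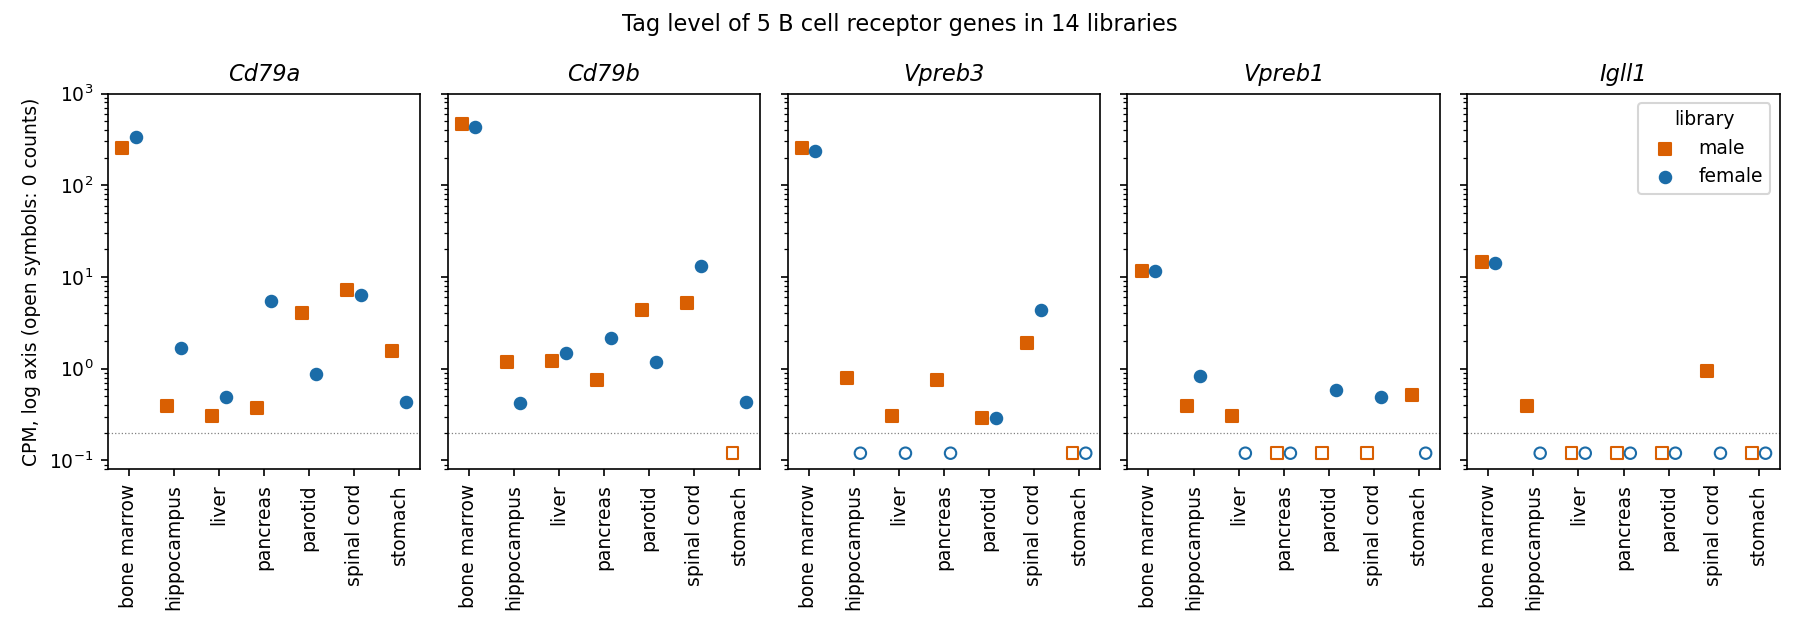
CPM of the 5 genes (log axis) in each of the 14 libraries, with tissues on the horizontal axis, bone marrow leftmost, male libraries as squares and female libraries as circles; open symbols under the dotted line had 0 counts. Both marrow libraries lie above all others for every gene, at 428 CPM or more for Cd79b and at 14.7 CPM or less for Vpreb1 and Igll1.

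Marrow held 95.7% of all counts of Cd79a, 96.9% of Cd79b, 98.5% of Vpreb3, 88.9% of Vpreb1 and 96.3% of Igll1. The mean marrow level was 294 ± 57.6 CPM for Cd79a, 448 ± 28.1 for Cd79b, 247 ± 15.7 for Vpreb3, 11.7 ± 0.00916 for Vpreb1 and 14.5 ± 0.271 for Igll1 (SD, n = 2 libraries). With the counts pooled by group, the marrow rate was 126 times that of the 12 other libraries for Cd79a, with an exact 95% interval of 99.7 to 162. The pooled ratio was 180 (143 to 229) for Cd79b and 381 (246 to 626) for Vpreb3. It was 45.3 (21.7 to 109) for Vpreb1 and 149 (49.2 to 738) for Igll1, where the few counts outside marrow leave the ratio loose. These intervals cover counting error only.

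Where a tissue had no count of a gene, the ratio is a lower bound set against 3 counts over its 2 libraries. Vpreb3 was at least 348-fold higher in marrow than in stomach. Vpreb1 was at least 21.2-fold higher in marrow than in pancreas. Igll1 was at least 25.7-fold higher in marrow than in liver, 26.1-fold than in pancreas, 33.2-fold than in parotid and 20.4-fold than in stomach.

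The comparison of marrow with the mean of the other tissues was tested with edgeR's quasi-likelihood test over 14682 genes that passed a filter on low counts, and a gene was called at a Benjamini-Hochberg adjusted p under 0.05 with a fold of at least 2. All 5 genes passed the filter, and they did so through their marrow counts, so that their calls describe them and are no separate evidence. All 5 were called higher, beside 19.6% of all genes tested. The log2 fold change was 8.78 ± 0.37 (SE) for Vpreb3 (adjusted p = 6.97e-12), 7.54 ± 0.32 for Cd79b (adjusted p = 3.70e-12) and 6.80 ± 0.36 for Cd79a (adjusted p = 4.33e-11). It was 7.29 ± 0.73 for Igll1 (adjusted p = 1.50e-06) and 5.42 ± 0.65 for Vpreb1 (adjusted p = 2.88e-06). The fitted folds of the scarce genes varied with the method and the libraries: with limma voom it was 5.25 for Igll1 and 4.36 for Vpreb1, and for Igll1 it was 6.54 without the female and 8.84 without the male marrow library.

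Ordered by fold over the 14682 genes, Vpreb3 stood at rank 46, Cd79b at 89, Igll1 at 113, Cd79a at 153 and Vpreb1 at 381. Ordered by marrow level the same genes stood at 366, 209, 5427, 311 and 6135.5, the last a tied rank. Igll1 and Vpreb1 thus had a high fold at a moderate level, whereas the signalling pair and Vpreb3 stood near the top by both measures. In whole tissue, more B lineage cells and more RNA of a gene per cell cannot be told apart.

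The make-up of the 5-gene total in marrow differed between the libraries by more than counting error for the shares of Cd79a and Cd79b. Shares add up to the whole, so a lower share of Cd79a raises those of the other genes. Counts of Vpreb3 per count of Cd79b, given below, were nearly the same in both libraries. Of the summed counts of the 5 genes, which were 2742 in male and 2797 in female marrow, Cd79b made up 46.5% (exact 95% interval 44.7 to 48.4) in male and 41.8% (40.0 to 43.6) in female marrow. Cd79a made up 25.2% (23.6 to 26.9) in male and 32.7% (30.9 to 34.5) in female marrow. Vpreb3 made up 25.6% (24.0 to 27.3) in male and 23.0% (21.4 to 24.6) in female marrow. The surrogate light chain stayed small, with Vpreb1 at 1.17% and 1.14% and Igll1 at 1.46% and 1.39% in male and female marrow. Intervals are Clopper-Pearson and cover counting error only.

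There were 0.542 counts of Cd79a per count of Cd79b in male marrow (exact 95% interval 0.493 to 0.595), against 0.782 in female marrow (0.716 to 0.853). The intervals do not overlap, but they take no account of the variation between libraries. Counts of Vpreb3 per count of Cd79b were 0.551 in male (0.502 to 0.605) and 0.550 in female marrow (0.499 to 0.606). The counts of the surrogate light chain pair were close to each other: 1.25 counts of Igll1 per count of Vpreb1 in male marrow (0.766 to 2.06) and 1.22 in female marrow (0.744 to 2.01).

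**Figure D2:**
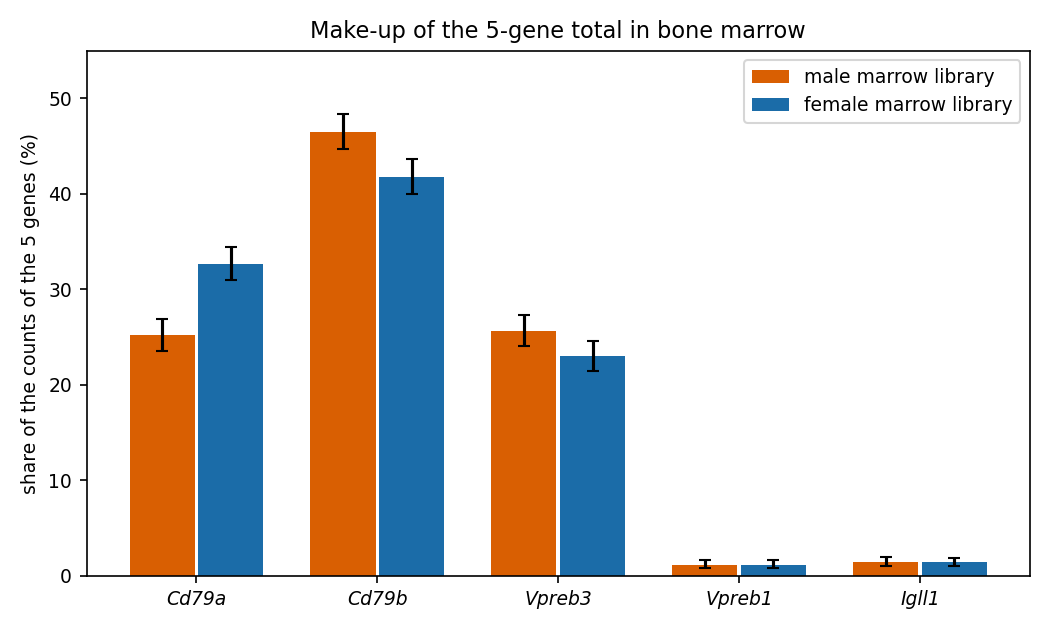
Share of each gene in the summed counts of the 5 genes, in percent, in the male (orange) and female (blue) marrow library; error bars are exact 95% intervals for counting error. The Cd79a bar is 25.2% in male and 32.7% in female marrow, while the bars of Vpreb1 and Igll1 lie under 2% in both.

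The sex difference within marrow rests on 1 library of each sex, and the spread for it was borrowed from the male and female libraries of the other 6 tissues. The liver libraries among them also differ in lobe. The log2 difference, male over female, was -0.48 ± 0.78 for Cd79a, 0.05 ± 0.67 for Cd79b and 0.05 ± 0.67 for Vpreb3. It was -0.07 ± 0.88 for Vpreb1 and -0.04 ± 0.82 for Igll1. No gene of the 5 was called by edgeR's quasi-likelihood test (adjusted p = 1 for each), beside 0% of the 14682 genes tested. At an unadjusted p under 0.05 there were 154 genes, DESeq2 called 1 gene and limma voom called 0, and neither called any of the 5. The Cd79a difference was thus smaller than its standard error once the spread between libraries was counted.

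Genes that work with the receptor were also higher in marrow. In a list of downstream signalling genes, 18 of the 19 tested were called higher and none lower, beside 19.6% of all genes higher, and the median log2 fold change was 4.30, beside -0.19 over all genes tested. Its most abundant called members were Dok3, an inhibitory adaptor (134 CPM in each marrow library, log2 fold 4.85 ± 0.27), and Syk, the kinase that docks on the phosphorylated Cd79a and Cd79b tails (128 CPM in male and 135 CPM in female marrow, 4.65 ± 0.36). Pik3ap1, which links the receptor to phosphoinositide 3-kinase, had 97.2 and 90.9 CPM in male and female marrow (2.66 ± 0.33). Plcg2, the phospholipase that releases calcium after receptor engagement, had 93.5 and 74.0 CPM (4.15 ± 0.31). Many of these signalling genes also act in myeloid cells, which marrow holds in large number. Fyn was the tested member that was not called, at 0.73 ± 0.27.

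Of the transcription factors of the B lineage, 12 of 14 tested were called higher and none lower, with a median of 4.41, beside the same 19.6% of all genes. The most abundant were Ikzf1, needed for lymphoid commitment (113 and 104 CPM in male and female marrow, log2 fold 5.99 ± 0.32), and Spib, an ETS family factor (108 and 96.7 CPM, 7.90 ± 0.37). Pou2af1, a coactivator bound to octamer factors, had 72.3 and 67.0 CPM in male and female marrow and no more than 1.47 CPM elsewhere (8.10 ± 0.51). Spi1, which acts in myeloid cells as well as in B cell precursors, had 82.2 and 54.6 CPM (4.70 ± 0.29). Foxo1 and Bcl6 were not called, at -0.58 ± 0.29 and -0.28 ± 0.43.

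Of the immunoglobulin and recombination genes, 5 of 5 tested were called higher, with a median log2 fold of 6.94, beside 19.6% of all genes. Igk-C, the kappa light chain constant region, had 1832 counts (672 CPM) in male and 2064 counts (756 CPM) in female marrow, more than either signalling chain (log2 fold 5.84 ± 0.26). Igl, titled immunoglobulin lambda chain, variable 1, had 478 counts (175 CPM) in male and 784 counts (287 CPM) in female marrow (7.15 ± 0.36). A second lambda identifier, outside the list, had 374 counts (137 CPM) in male and 485 counts (178 CPM) in female marrow. Jchain, which joins secreted IgM and IgA, had 32.6 and 37.7 CPM in male and female marrow (4.59 ± 0.46). Dntt, the template-free polymerase of early precursors, had 39.6 and 26.7 CPM (7.65 ± 0.60), a level above those of Vpreb1 and Igll1. The identifier titled for the heavy chain of IgM had only 2 and 1 counts in male and female marrow and did not pass the filter, while another titled immunoglobulin heavy chain 1a had 2460 and 2779.

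Surface genes of the B lineage gave 12 higher of 13 tested, with a median of 4.57, beside 19.6% of all genes. Cd24a had 2416 and 1982 CPM in male and female marrow and is also made by red cell precursors and neutrophils (log2 fold 4.73 ± 0.24). Cd74, the invariant chain of MHC class II, had 1163 and 1585 CPM (3.47 ± 0.25), Cxcr4 had 84.4 and 72.2 CPM (6.59 ± 0.37) and Fcmr, the IgM Fc receptor, had 57.6 and 79.5 CPM (6.83 ± 0.43). In a plasma cell list, also beside 19.6%, 2 of 5 tested were higher, Pou2af1 again and Mzb1 (29.7 and 23.8 CPM, 6.49 ± 0.48). The 1 lower gene was Derl3, with 3 and 1 counts in male and female marrow (-3.16 ± 0.74), and the median was -0.85. Some genes of this list were abundant outside marrow: Derl3 reached 47.4 CPM in male parotid and Sdc1 130 CPM in female liver. The median thus does not measure plasma cells alone.

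Other blood lineages rose in marrow as well. All 12 neutrophil granule genes (median log2 fold 11.12) and all 10 erythroid genes (median 9.82) were called higher, as were 7 of 9 T and natural killer cell genes (median 3.71) and 7 of 8 macrophage genes (median 2.60), beside 19.6% of all genes. Cd3d, a T cell receptor subunit, had 22.0 and 44.0 CPM in male and female marrow (5.79 ± 0.56). Ngp, a neutrophil granule protein, had 9751 and 12758 CPM (15.81 ± 0.40). Among these lists the highest fold changes thus belonged to neutrophil and erythroid genes, with the receptor chains below most of them. All these lists were chosen with earlier results of the same data known.

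**Figure D3:**
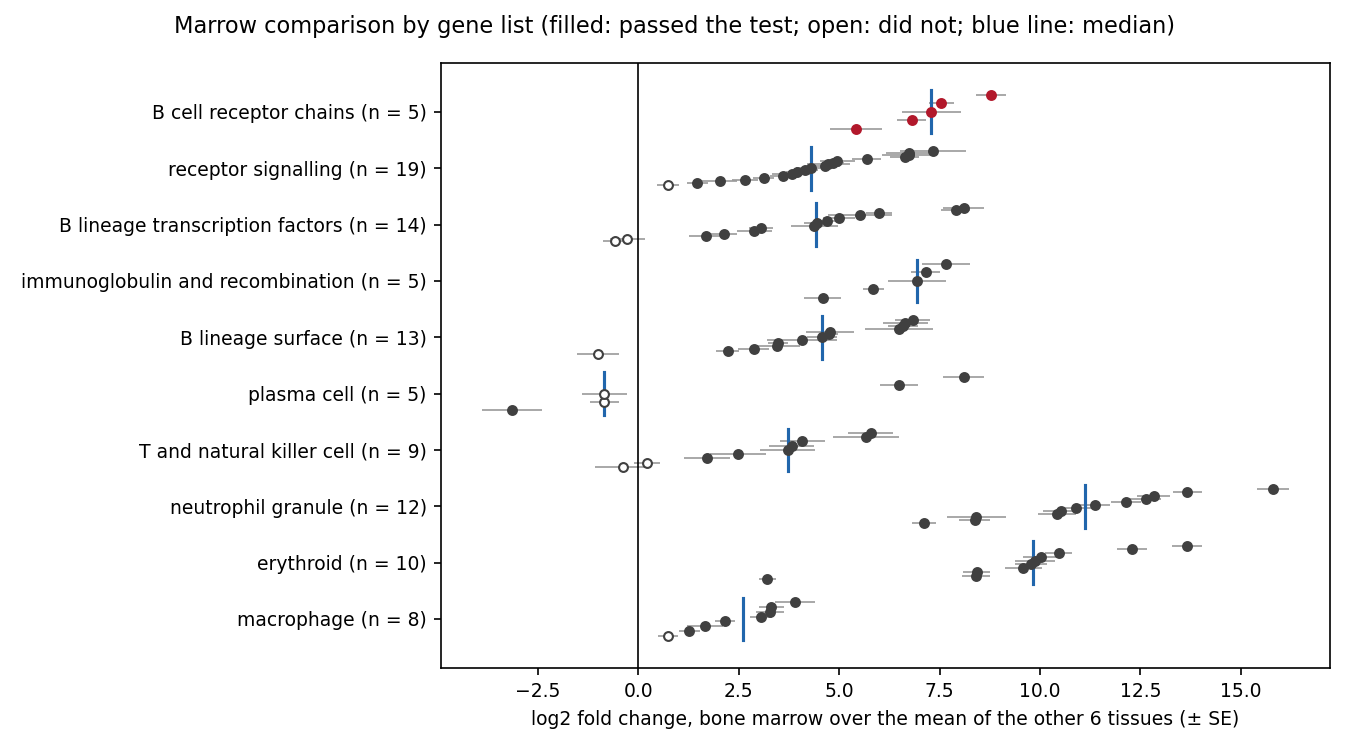
Log2 fold change of bone marrow over the mean of the other 6 tissues (horizontal axis, ± SE) for the 5 receptor chains (red) and the tested genes of 9 lists; filled points passed the test, open points did not, and blue lines mark medians. The receptor chains run from 5.42 to 8.78, above the signalling median of 4.30 and below the neutrophil median of 11.12.

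Outside marrow the signalling pair was low but not evenly spread. Spinal cord had the most counts: Cd79a had 15 counts (7.17 CPM) in the male and 13 counts (6.35 CPM) in the female spinal cord library, and Cd79b had 11 counts (5.26 CPM) and 27 counts (13.2 CPM). Parotid and pancreas each had 1 library above the other. Cd79a and Cd79b had 14 and 15 counts in male parotid but 3 and 4 in female parotid, and 1 and 2 counts in male pancreas but 15 and 6 in female pancreas. In hippocampus, liver and stomach neither gene passed 4 counts in a library. With the counts of the 12 libraries pooled, the ratio of Cd79a to Cd79b was 0.935 (exact 95% interval 0.669 to 1.31). The pooled marrow ratio was 0.656 (0.616 to 0.699). These intervals cover counting error only. The ratios of the male and the female marrow library, 0.542 and 0.782, both lie outside the pooled marrow interval. The pooled ratios were not tested against each other.

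**Figure D4:**
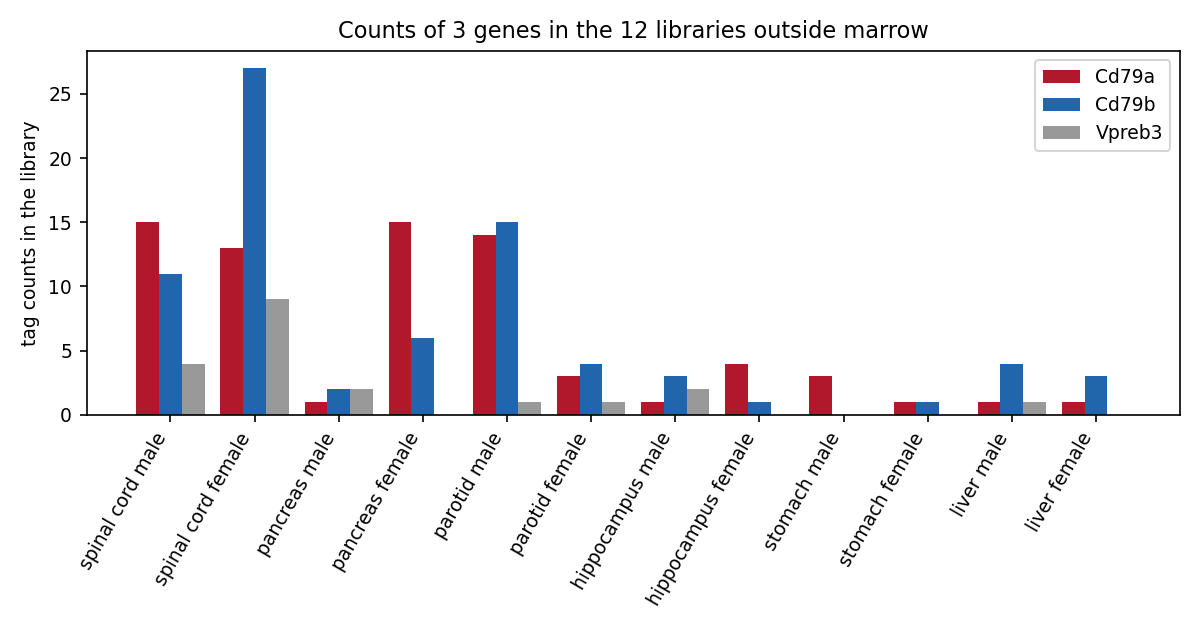
Tag counts of Cd79a (red), Cd79b (blue) and Vpreb3 (grey) in each of the 12 libraries outside marrow, ordered by tissue with the male library left of the female one. The tallest bar is Cd79b in female spinal cord at 27 counts, and Vpreb3 passes 2 counts in the spinal cord libraries only.

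Tested among the 6 tissues outside marrow with edgeR's quasi-likelihood F test, 3 of the 5 genes were called, beside 70.3% of all genes tested. They were Cd79b (adjusted p = 0.000367), Cd79a (adjusted p = 0.000450) and Vpreb3 (adjusted p = 0.0346). The test gave 0.865 for Vpreb1 and 0.750 for Igll1 as adjusted p. The share called was close to the background. The Vpreb3 call was lost without the male marrow library (adjusted p = 0.0583), without the female marrow library (0.0608) and without the female spinal cord library (0.128).

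In spinal cord against the mean of the other 5 tissues outside marrow, Cd79b was higher by a log2 fold of 1.44 ± 0.50 (adjusted p = 0.0282) and Vpreb3 by 2.15 ± 0.74 (adjusted p = 0.0283), both by edgeR's quasi-likelihood test. These were 2 of the 5 genes, beside 25.7% of all genes called higher. Cd79a was at 0.78 ± 0.57 (adjusted p = 0.314). Both calls rested on the female library: without it Cd79b was at 0.54 (adjusted p = 0.649) and Vpreb3 at 1.22 (adjusted p = 0.369). Without scaling factors Cd79a was at 2.42 (adjusted p = 0.000862), Cd79b at 3.10 and Vpreb3 at 3.78; the factors were 2.42 and 2.49 in the male and female spinal cord libraries.

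Neutrophil and erythroid genes were set beside the receptor chains in spinal cord. Relative to its marrow mean, the spinal cord mean was 2.30% for Cd79a, 2.06% for Cd79b, 1.28% for Vpreb3, 2.08% for Vpreb1 and 3.30% for Igll1, the last 2 from 1 and 2 counts. The same percentage had a median of 1.5% over 12 neutrophil granule genes (0.942% to 7.13%) and of 1.76% over 10 erythroid genes (0.700% to 27.6%). In the B lineage lists the median was 4.81% over 21 downstream signalling genes and 5.77% over 14 surface genes. It was 20.3% over 16 transcription factors and 0.579% over 8 immunoglobulin and recombination genes. All 12 neutrophil genes and 9 of 10 erythroid genes had a higher mean in spinal cord than in any other tissue outside marrow, as did Cd79a, Cd79b and Vpreb3. In the same spinal cord comparison 12 of 12 neutrophil and 8 of 10 erythroid genes were called higher, beside 25.7% of all genes. Other blood cell lists did not rise in this way. Of 8 macrophage genes 0 were higher and 2 lower, and of 9 T and natural killer cell genes 1 was higher and 0 lower. Of 5 plasma cell genes 0 were higher and 3 lower. The neutrophil sum was 374.4 and 459.6 CPM in male and female spinal cord, with 1 and 0 of the genes at 0, against 0.362 to 53.1 CPM in the 10 other libraries outside marrow. The part of marrow or blood cells in the spinal cord signal was not tested.

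Immunoglobulin transcripts were uneven in spinal cord. Igk-C had 23 and 36 counts in male and female spinal cord, and its mean was 2.0% of the marrow mean. The heavy chain 1a identifier had 169 and 223 counts, or 9.88% of marrow, its highest level outside marrow, and another titled heavy chain J558 had 46 and 8 counts, or 4.55% of marrow. None of the 5 tested genes of the immunoglobulin and recombination list, which holds neither heavy chain identifier, was called higher. In the list of downstream signalling genes 3 of 19 tested were higher and 2 lower in spinal cord, of B lineage transcription factors 4 of 14 were higher and 1 lower, and of surface genes 1 of 13 was higher and 3 lower, beside the same 25.7% of all genes higher.

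**Figure D5:**
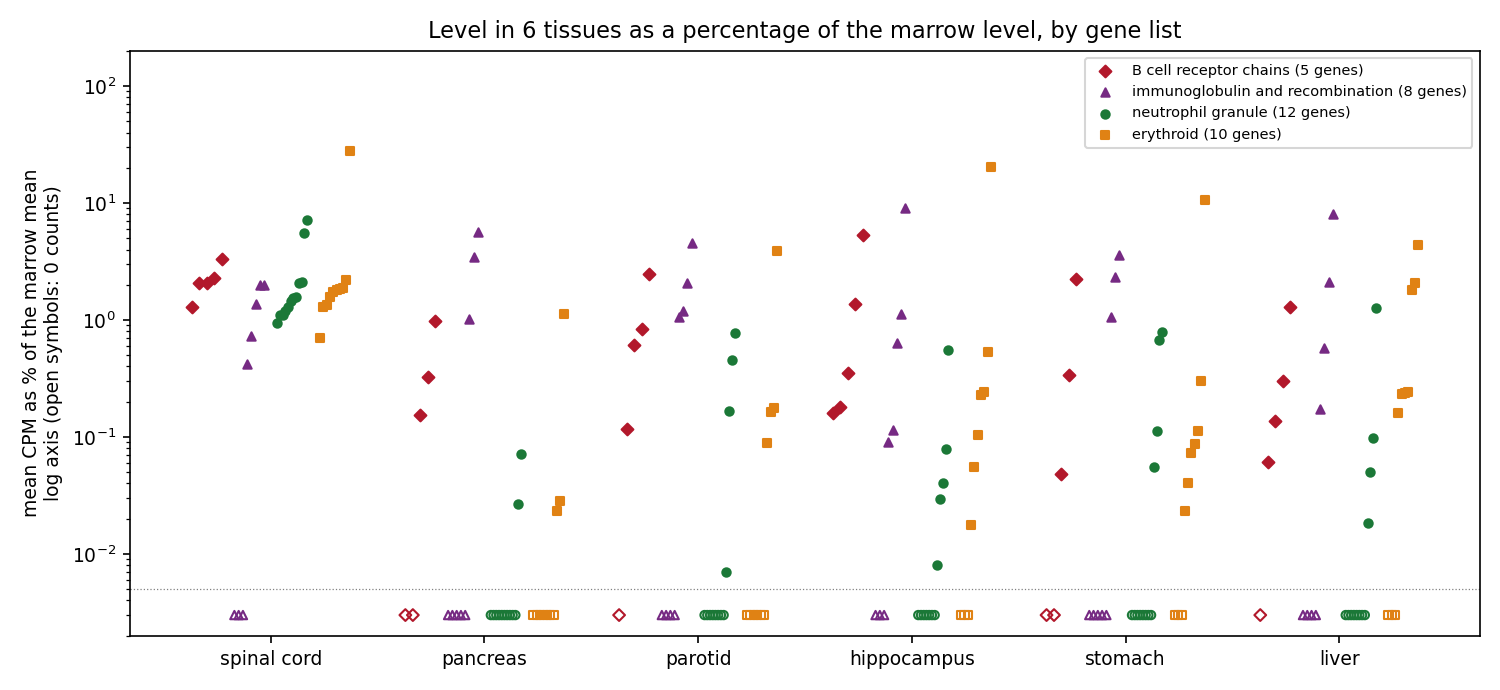
Mean CPM in each tissue outside marrow as a percentage of the marrow mean (log axis), 1 point per gene, for the 5 receptor chains (red), 8 immunoglobulin and recombination genes (purple), 12 neutrophil granule genes (green) and 10 erythroid genes (orange); open symbols under the dotted line had 0 counts in that tissue. In spinal cord the receptor chains lie between 1.28% and 3.30%, beside neutrophil genes at 0.942% to 7.13%, while most neutrophil genes are at 0 in pancreas and parotid.

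In pancreas Cd79a had a log2 fold of 3.86 ± 0.71 over the mean of the other 5 tissues (adjusted p = 0.00123) and Cd79b of 2.91 ± 0.77 (adjusted p = 0.0200) by edgeR's quasi-likelihood test, beside 5.78% of all genes called higher. This depended on the scaling: the factors were 0.147 and 0.183 in the male and female pancreas libraries, and without them Cd79a was at 0.92 (adjusted p = 0.223) and Cd79b at -0.031 (adjusted p = 1). It also depended on the female library, without which Cd79a was at 1.11 (adjusted p = 0.906) and Cd79b at 2.09 (adjusted p = 0.551), and Cd79b was at 3.34 (adjusted p = 0.0716) without the male one. In parotid Cd79b was called at 1.92 ± 0.56 (adjusted p = 0.0251), beside 10.5% of all genes, and Cd79a was at 1.61 ± 0.65 (adjusted p = 0.110). The Cd79b call was lost without scaling factors (1.05, adjusted p = 0.191), without the male parotid library (0.52, adjusted p = 0.942) and without the male pancreas library (1.81, adjusted p = 0.0549). Cd79a in parotid passed the threshold in 6 of 19 alternatives: with no low-count filter (1.59, adjusted p = 0.0260), and without the female hippocampus (1.83, 0.0429), female pancreas (2.10, 0.0346), female parotid (2.61, 0.0341), female stomach (1.42, 0.0187) or male stomach library (1.81, 0.00305). Without the male parotid library it was at -0.17 (adjusted p = 1).

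Immunoglobulin transcripts were present in both glands, and in stomach as well. In male and female stomach Igk-C had 40 and 29 counts, heavy chain 1a 26 and 18, and J558 17 and 46. Cd79a had 3 and 1 counts in these stomach libraries, and Cd79b 0 and 1. Igk-C had 29 and 106 counts in male and female pancreas and 48 and 54 in male and female parotid. The heavy chain 1a identifier had 24 and 102 counts in male and female pancreas and 57 and 31 in parotid. The J558 identifier had 1 and 23 counts in male and female pancreas and 32 and 71 in male and female parotid. The female pancreas library was thus the higher of its pair for Cd79a, Cd79b, Igk-C and both heavy chain identifiers. The male parotid library was higher for Cd79a, Cd79b and heavy chain 1a, and the female one for Igk-C and J558. Vpreb3 had 2 and 0 counts in male and female pancreas and 1 in each parotid library, and Igll1 had none in either gland. Neutrophil granule genes summed to 1.13 and 0.362 CPM in male and female pancreas, with 11 of 12 at 0 in both, and to 14.4 and 24.3 CPM in male and female parotid, with 8 of 12 at 0 in both.

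The genes whose levels followed each receptor chain most closely were found by the Pearson correlation of log2(CPM + 1) over the 14 libraries. The libraries share tissues, and a marrow-restricted gene of any lineage scores high. For Cd79a they were Ms4a1, the B cell surface protein CD20 (r = 0.984), H2-Ob, an MHC class II chaperone subunit of B cells (0.972), and Spn, the leukocyte sialophorin CD43 (0.971). For Cd79b they included Tspo2 (0.983) and Rhag, a red cell membrane protein (0.980). For Vpreb3 they were a gene titled triggering receptor expressed on myeloid cells-like 2 (0.996), Tspan32 (0.995) and Ermap, an erythroblast membrane protein (0.994).

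For Vpreb1 the closest were 2 unnamed identifiers (0.979 each) and Exo1, a DNA repair exonuclease (0.976). For Igll1 they were 9830107B12Rik (0.995), a gene titled butyrophilin related 1 (0.995) and an unnamed transcript (0.994). B cell genes stood beside Cd79a, and genes of the red cell lineage were among those nearest to Cd79b and Vpreb3. With a pseudocount of 0.1 in place of 1, 10 of these 15 pairs were found again.

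Promoter sequence was available for Cd79a, Vpreb3, Vpreb1 and Igll1 from RefSeq (GRCm38.p6), as windows of 250 bases before to 50 bases after the start. Both strands were searched for motifs of factors active in early B cells. An octamer (ATGCAAAT), the site of POU factors and their coactivator Pou2af1, was found in 1.74% of the 32851 windows of the table and in 1 of the 4: Vpreb3, on the reverse strand 45 bases before the start. An EBF1-type palindrome (CCCNNGGG) was found in 13.7% of windows and in 1 of the 4, Igll1, 231 bases before the start. An E-box (CANNTG), read by factors such as Tcf3, was in 72.3% of windows and in all 4, with 5 matches in Vpreb3, a pair of them overlapping, 3 in Igll1, 2 in Cd79a and 1 in Vpreb1. The short ETS core (GGAA) was in 96.0% of windows and in all 4, a share too high to set these genes apart.

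The 250 bases before the start are shown for the genes with an octamer or a palindrome match, with these matches and the E-boxes in capitals.
Vpreb3, chr10:75948050-75948299, plus strand: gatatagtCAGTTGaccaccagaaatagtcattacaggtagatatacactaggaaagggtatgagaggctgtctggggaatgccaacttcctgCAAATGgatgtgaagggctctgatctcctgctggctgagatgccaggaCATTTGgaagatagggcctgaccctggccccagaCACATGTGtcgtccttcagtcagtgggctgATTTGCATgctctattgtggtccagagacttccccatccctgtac
Igll1, chr16:16863986-16864235, minus strand: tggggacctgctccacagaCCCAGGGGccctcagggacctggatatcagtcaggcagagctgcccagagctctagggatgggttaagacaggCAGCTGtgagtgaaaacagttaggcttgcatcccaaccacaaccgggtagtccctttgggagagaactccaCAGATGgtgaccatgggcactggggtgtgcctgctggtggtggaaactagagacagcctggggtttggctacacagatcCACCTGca

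In Vpreb3 the octamer stands as ATTTGCAT, its reverse complement, downstream of all 5 E-boxes. In Igll1 the palindrome lies upstream of all 3 E-boxes, the nearest of which begins 8 bases before the start. A match of letters describes the window and does not show that a factor binds there.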

How the data were processed

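The authors deposited raw counts of distinct 20-base tags with an identifier and a class code for each. Per the labels, cDNA was cut with DpnII and tags were captured with MmeI. The software and genome build were not given in the sources used here. Without a legend of the codes, codes 1 to 4 were taken as sense tags and codes 11 to 16 as reverse-strand tags. Counts of codes 1 to 4 were summed per identifier. Symbols come from the accession or title in the files, and 12125 of 22221 genes had a symbol.

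Genes were kept by filterByExpr, scaled by TMM and tested by quasi-likelihood F tests (edgeR 4.0.16, R 4.3.3), with terms for tissue and sex (6 residual degrees of freedom) or also for sex in marrow (5). The script was tested on simulated data. Standard errors are the fold divided by the root of F. With 2 libraries a tissue, p-values measure only the spread between these libraries, which may be technical. Alternatives used limma 3.58.1, DESeq2 1.42.0, other scalings, filters, tag choices and libraries left out. Tables used Python 3.11.15, pandas 2.3.3 and scipy 1.17.1.

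Named genes are the 5 chains, the 3 genes most like each, and up to 4 called members per list with the highest marrow mean. The members, lists and motifs were chosen with earlier results of these data known. Lat2, Vpreb2, Ighd, Iglc1 and Ahsp were not analysed here, and neither was the Cd79b promoter. Some genes are withheld and not named.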

Additional observations from a re-analysis of the deposited data

Results flagged for a closer look

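Tags of the reverse class were left out of all comparisons above, and in marrow they exceeded the 3 counts that an observed 0 allows for all 5 genes, in each library for 4 of them and in the 2 libraries together for Igll1. Vpreb3 had 42 such counts in marrow, 21 in each library, which is 2.90% of its counts on both strands in male marrow and 3.16% in female marrow, all in 1 tag and none in the 12 other libraries. The tag was GATCtcacagttctcaggac, with the DpnII site in capitals. Cd79b had 34 in marrow, 17 in each library, and 3 elsewhere. Cd79a had 11, of which 7 were in male and 4 in female marrow. Vpreb1 had 9, of which 4 were in male and 5 in female marrow, or 11.1% and 13.5% of both strands. Igll1 had 5, of which 3 were in male and 2 in female marrow, or 6.98% and 4.88% of both strands. Over all genes the reverse class made up 5.16% in male and 4.73% in female marrow. Their source was not tested.

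An identifier titled as similar to human CD79A, counted apart from Cd79a, had 104 counts in marrow, 62 in the male and 42 in the female library, and 1 count elsewhere. Whether its tag comes from the Cd79a transcript was not tested. With these counts added, the marrow mean of Cd79a was 313 CPM in place of 294 CPM, a choice made after seeing the data.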

How the results depend on the processing

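The 5 genes were called higher in marrow under 21 of 22 alternatives, and 3 of them with code 1 tags alone, because Vpreb1 and Igll1 have only code 2 tags. Without the sex term (no replicate block by sex) all 5 were called, with 2881 genes higher in all against 2882 with it, and 3 of 5 differed among the tissues outside marrow in both fits. That count was 4 with limma voom, through Igll1, and 2 to 3 with a library left out. Male and female libraries of a tissue share only a label and are not known to be pairs of animals. Without scaling factors 4649 genes were higher in marrow, and the median log2 fold over all genes was 0.37 in place of -0.19. The Cd79b fold in pancreas reversed to -0.031 without scaling factors. For sex in marrow, 4 genes were called with no low-count filter and 1 with DESeq2, and leaving out a library gave 0 to 8 genes, with 7 and 8 when the female and the male stomach library was left out; none of the receptor chains was among the calls in 19 alternatives for Cd79a, Cd79b and Vpreb3 and in 18 for Vpreb1 and Igll1, which have no code 1 tags. The cause of these shifts was not tested.

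The F calls of Cd79a and Cd79b among the tissues outside marrow held in all 22 alternatives. The calls for a single tissue in spinal cord, pancreas and parotid each depended on single libraries, as given above, and at 0 to 27 counts per library they are limited by depth. Vpreb1 and Igll1 are too sparse outside marrow to rank tissues.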
